A study of Arabidopsis thaliana with 8 samples.

Results

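Gene expression of Arabidopsis seedlings that overexpress the rice gene OsSHMT3 was compared with that of wild-type seedlings after salt stress. The comparison takes its differences from 4 of the 8 arrays of the study, 2 of wild-type and 2 of the overexpresser (OE). All 4 came from whole seedlings 14 days old that had been exposed to 150 mM NaCl for 24 h. The comparison takes in 22746 probe sets, that is every probe set of the ATH1 array except its 64 control probe sets. Each probe set reads a transcript through a set of short oligonucleotides, and each value is the authors' log2 signal, so that a difference of 1 is a doubling. The other 4 arrays, 2 of wild-type and 2 of OE without NaCl (control), show which differences were also present without salt. Differences in control share no array with those under NaCl. The spread behind each standard error (SE) and adjusted p was estimated from all 8 arrays together, so the calls of both comparisons share it. Transgenic seedlings carried OsSHMT3 in the pORE-E2 vector behind the pENTCUP2 promoter and came from homozygous lines in the third generation after transformation and kanamycin selection. No array of an empty-vector line was analysed here, so effects of OsSHMT3, of the vector and of its insertion site cannot be told apart. For the line on the arrays the methods give OE3 in 1 sentence and OE5 in the next, and a figure legend gives a lower NaCl concentration than the methods and the labels do.

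Serine hydroxymethyltransferase interconverts glycine and serine and loads folate with a single-carbon unit. In leaves its mitochondrial form works beside glycine decarboxylase in photorespiration, and the folate units feed the making of methionine and, from it, of S-adenosylmethionine, the methyl donor of the cell. Salt reduces water uptake and brings in sodium. Plants answer through abscisic acid, compatible solutes such as proline, and protective hydrophilic proteins, among them the late embryogenesis abundant (LEA) proteins, which are also laid down in ripening seeds. The array has no probe set for the rice transgene among those analysed here, so its level gave no check of the labels, and the Arabidopsis SHM genes were not analysed here.

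The arrays were not alike in spread, and this bears on every result. The difference between a group's 2 arrays varied over probe sets with an SD of 0.116 for wild-type NaCl, 0.213 for wild-type control, 0.430 for OE control and 0.551 for OE NaCl. OE NaCl replicate 1 had a median signal of 6.10, near those of the OE control arrays (6.00 and 6.08), while OE NaCl replicate 2 had 6.32, near those of the wild-type arrays (6.27 to 6.33). Among the 5687 probe sets dimmest in wild-type NaCl (at or under its lower quartile), the median difference from wild-type NaCl was 0.35 on OE NaCl replicate 1 and 0.056 on replicate 2. No detection calls were among the values, and the lower quartile of an array lay between 4.28 and 4.61, so differences against levels near it have no known background limit and are given as signal only. The array-wide correlation of the 2 OE NaCl arrays (Pearson r = 0.971 over probe sets, which are not independent replicates) was close to that of OE NaCl replicate 2 with the wild-type NaCl arrays (r = 0.969 with each). It was also close to that of OE NaCl replicate 1 with the unsalted OE control arrays (r = 0.966 with replicate 1 and 0.972 with replicate 2). The leaf gene RCA, Rubisco activase, was near 12.7 on all 8 arrays (12.54 to 12.76), and it marks green tissue. For the arrays the methods speak of RNA extracted in triplicate, whereas 2 arrays per group were analysed here, and they do not say whether these were separate cultures, so p-values measure the spread between these arrays, which may be technical.

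At an adjusted p under 0.05 in limma, 2057 of 22746 probe sets (9.04%) differed between OE and wild-type under NaCl, of which 937 (4.12%) were higher and 1120 (4.92%) were lower in OE. These are the probe sets called here. Every one of them had both OE arrays on the same side of both wild-type arrays, a separation shown by 60.2% of all probe sets. More than 2 on the log2 scale separated the genotypes for 133 of the higher and 180 of the lower probe sets. At the limits in the study's methods, P under 0.05 with a log fold change beyond 2, read here as an unadjusted P and log2, 315 probe sets passed (1.38%), 134 higher (0.589%) and 181 lower (0.796%). A list member counts as measured where a probe set carries its name here, and since 8730 of the 22746 probe sets carry none, members not found may still be on the array. The gene lists described here are read against these shares and against the median log2 fold change of all probe sets, which was 0.04. Only differences relative to the rest of the array are measured. Setting each array to the same median moved the median of all probe sets by 0.117 under NaCl and by 0.256 in control.

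Much of the difference was there without salt. In control, 4580 probe sets (20.1%) were called, of which 1842 (8.10%) were higher and the rest lower. Leaving out single arrays moved that count, from 420 without wild-type control replicate 1 and 736 without replicate 2 to 8696 without either OE NaCl array, and the split by control calls rests on it. The higher share of these calls was 40.2%, but 69.0% after median centring, so the balance of directions in control rests on the scaling. At the limits of the methods 285 passed in control (1.25%), 213 of them lower (0.936%). Of the 937 probe sets higher under NaCl, 405 were also higher in control, 109 were lower in control and 423 were not called there. Of the 1120 lower ones, 723 were also lower in control, 5 were higher and 392 were not called. The test of the difference between the NaCl and the control comparison, the interaction, called 375 probe sets (1.65%), 279 of them toward OE (1.23%), and 198 at the limits of the methods (0.870%). The interaction count ran from 122 without wild-type NaCl replicate 2 to 2294 without OE NaCl replicate 1. The 375 included 223 of the higher and 82 of the lower ones. Among the higher ones this difference ran toward OE in 222, and among the lower ones toward wild-type in 78. Across probe sets, which are not independent replicates, differences under NaCl and in control correlated with r = 0.628 (Pearson) and rho = 0.675 (Spearman).

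**Figure D1:**
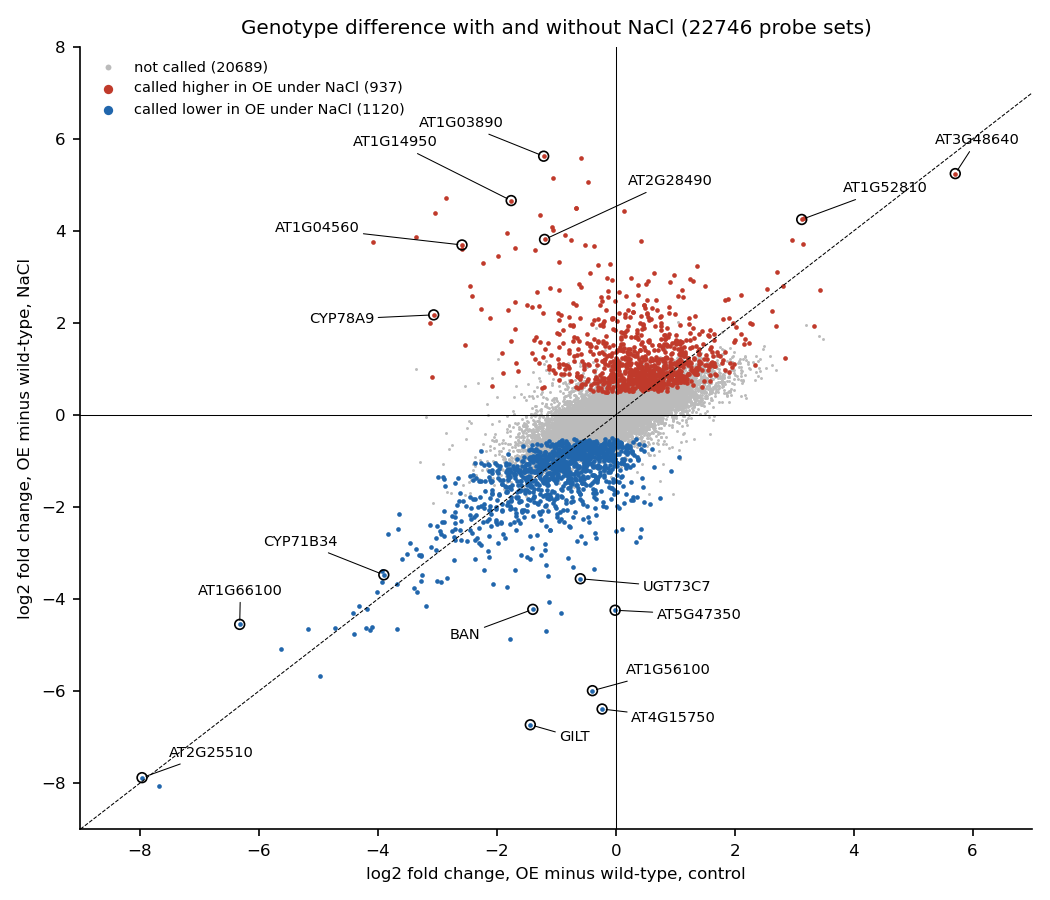
Log2 fold change of OE minus wild-type in control (x axis) and under NaCl (y axis) for 22746 probe sets; red and blue points are the 937 and 1120 probe sets called higher and lower under NaCl, the dashed line marks equal differences, and circles mark named genes. AT2G25510 (-7.97 and -7.88) lies near the line, GILT (-1.44 and -6.73) far below it, and AT1G03890 (-1.21 and 5.63) on the opposite side of zero.

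The 2 OE NaCl arrays gave the same sign for every called probe set, which follows largely from calling on these same arrays. Leaving out 1 or the other changed the calls unequally. A fit with 1 OE NaCl array left takes no spread from that group, the widest. Calls kept there are thus no test of how far they rest on the array left out. Leaving out a control array leaves every difference under NaCl as it was and changes only the spread behind its adjusted p. In a fit without OE NaCl replicate 1, 709 of the 937 higher and 822 of the 1120 lower probe sets were still called in the same direction. Without OE NaCl replicate 2, 915 and 1112 were. Both fits kept 698 and 818, and where the call of a named gene under NaCl ended without an array, this is given beside it. Leaving out a wild-type NaCl array, the tightest pair, brought the total down to 563 (without replicate 1) or 568 (without replicate 2), and leaving out either wild-type control array to 1280. Without OE NaCl replicate 2 it rose to 7057, of which 3363 were higher and 3694 lower.

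**Figure D2:**
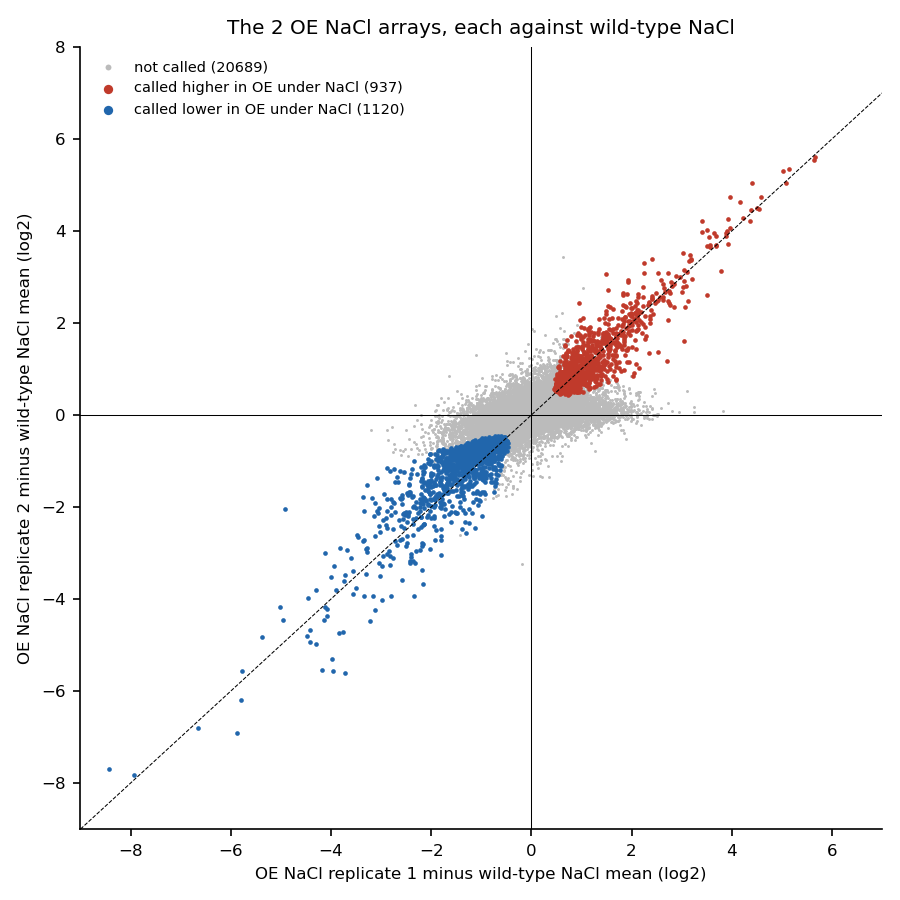
Each OE NaCl array minus the mean of the 2 wild-type NaCl arrays, on the log2 scale, replicate 1 on the x axis and replicate 2 on the y axis; colours as called in the fit to all arrays. Called probe sets follow the dashed line of equal values, whereas many uncalled ones spread along the x axis, where replicate 1 alone departs from wild-type (SD 0.756, against 0.562 for replicate 2).

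Several transcripts that were well expressed in wild-type were much lower in OE whether or not salt was given. AT2G25510 had the lowest log2 fold change of all probe sets that name 1 gene. Its log2 signal was 12.26 and 12.31 on the wild-type NaCl arrays and 4.35 and 4.45 on the OE NaCl arrays, which gave -7.88 as the log2 fold change (SE 0.12, adjusted p = 1.11e-06, n = 2 on each side here and throughout), while in control it was -7.97. The thionin gene AT1G66100, of a family of small antimicrobial peptides, was at 8.79 and 8.81 in wild-type and 4.37 and 4.12 in OE (log2 fold change -4.55, SE 0.19, adjusted p = 3.92e-05). Its difference was larger in control (-6.32), where wild-type reached 10.76 and 11.13, and the interaction of 1.77 had an adjusted p of 0.0279, which reached 0.184 without a wild-type NaCl array. ECS1, a cell wall protein linked to resistance against a bacterial pathogen, was at 10.48 and 10.67 in wild-type, against 6.86 and 4.97 in OE. The OE arrays differed by nearly 2 for this gene, and the genotypes by -4.66 (log2 fold change, SE 0.53, adjusted p = 0.00229; -5.18 in control).

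Others of this kind were AT1G76960, AT1G23960 and the leucine-rich repeat gene AT3G43740, each with a log2 fold change of -4.64 under NaCl and of -3.67, -4.71 and -4.20 in control. CYP71B34, a cytochrome P450, was at 7.12 and 7.09 in wild-type, against 3.54 and 3.72 in OE (log2 fold change -3.47, SE 0.14, adjusted p = 3.06e-05; -3.90 in control). Its relative CYP71B26 was at 8.95 and 8.76 against 6.27 and 7.06 (log2 fold change -2.19, SE 0.28, adjusted p = 0.00419; -1.68 in control). The MADS-box genes AGL87 and AGL19 had log2 fold changes of -2.72 and -2.11 under NaCl and of -2.37 and -1.29 in control (adjusted p = 0.000699 and 0.000302 under NaCl). For these 7 genes the interactions were not called.

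A second group was well expressed on 6 arrays and low only on the 2 arrays of salted OE seedlings. GILT, named after a lysosomal thiol reductase of animals, was among the most abundant transcripts of wild-type, at 12.99 and 13.05 under NaCl. It stood at 11.95 and 11.61 in OE control and at 6.36 and 6.21 in OE NaCl. Under NaCl it was thus 106-fold lower in OE (log2 fold change -6.73, SE 0.16, adjusted p = 5.52e-06), against -1.44 in control, and the interaction was -5.30 (adjusted p = 7.43e-05). AT4G15750 and AT1G56100 belong to the invertase and pectin methylesterase inhibitor family, whose proteins block enzymes of sugar and cell wall metabolism. AT4G15750 was between 11.37 and 11.80 on the other 6 arrays and at 5.92 and 4.87 in OE NaCl (log2 fold change -6.39, SE 0.31, adjusted p = 5.52e-05). AT1G56100 was between 11.06 and 11.56 there and at 5.75 and 5.35 in OE NaCl (log2 fold change -5.99, SE 0.16, adjusted p = 1e-05). Their interactions were -6.16 and -5.60 (adjusted p = 0.000874 and 7.23e-05), and neither was called in control.

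AT5G38180, of the family of lipid transfer proteins and seed albumins, was at 9.52 and 9.62 in wild-type NaCl, at 8.74 and 8.77 in OE control, and at 5.43 and 5.11 in OE NaCl (log2 fold change -4.30, SE 0.15, interaction -3.38). AT5G47350 was at 9.31 and 9.21, 8.76 and 8.66, and 5.49 and 4.54 on the same arrays (log2 fold change -4.24, SE 0.28, interaction -4.23). BAN, the anthocyanidin reductase that makes proanthocyanidin precursors and marks the seed coat, was at 8.68 and 8.59, 7.13 and 7.27, and 4.56 and 4.25 (log2 fold change -4.22, SE 0.17, adjusted p = 3.06e-05). Its interaction was -2.83 (adjusted p = 0.00176). In whole seedlings, fewer cells of a type and less RNA per cell cannot be told apart. DFR, which acts before BAN in the same pathway, was also lower in OE, at 5.86 and 5.14 against 7.44 and 7.50 (log2 fold change -1.97, SE 0.24, adjusted p = 0.00316), with an interaction that was not called (-1.50, adjusted p = 0.109). Of 6 measured genes of flavonoid, anthocyanin and proanthocyanidin synthesis (of 21 listed) these 2 were lower and 0 higher, with a median log2 fold change of -0.28. The anthocyanin glycosyltransferase gene UF3GT, at a log2 fold change of 0.16 (adjusted p = 0.736), was not called.

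The serine carboxypeptidase-like gene scpl20 was lower as well, at 7.07 and 7.14 in OE NaCl against 9.64 and 9.57 in wild-type NaCl (log2 fold change -2.50, SE 0.13, adjusted p = 6.66e-05; interaction -1.40, adjusted p = 0.0129, which any 1 wild-type array ended when left out, up to 0.143). Of 29 measured members (of 51 listed) of this family of secreted peptidases and acyltransferases, 3 were lower and 0 higher, with a median of -0.01. The others were scpl47 (-1.05) and scpl48 (-0.82), whose calls ended without a wild-type NaCl array (adjusted p up to 0.189 and 0.141), and that of scpl47 also without a wild-type control array. AT2G30810, a gibberellin-regulated gene, had a log2 fold change of -4.86 but a wide spread (SE 0.70, adjusted p = 0.0067, and 0.0575 at most without a wild-type NaCl array).

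**Figure D3:**
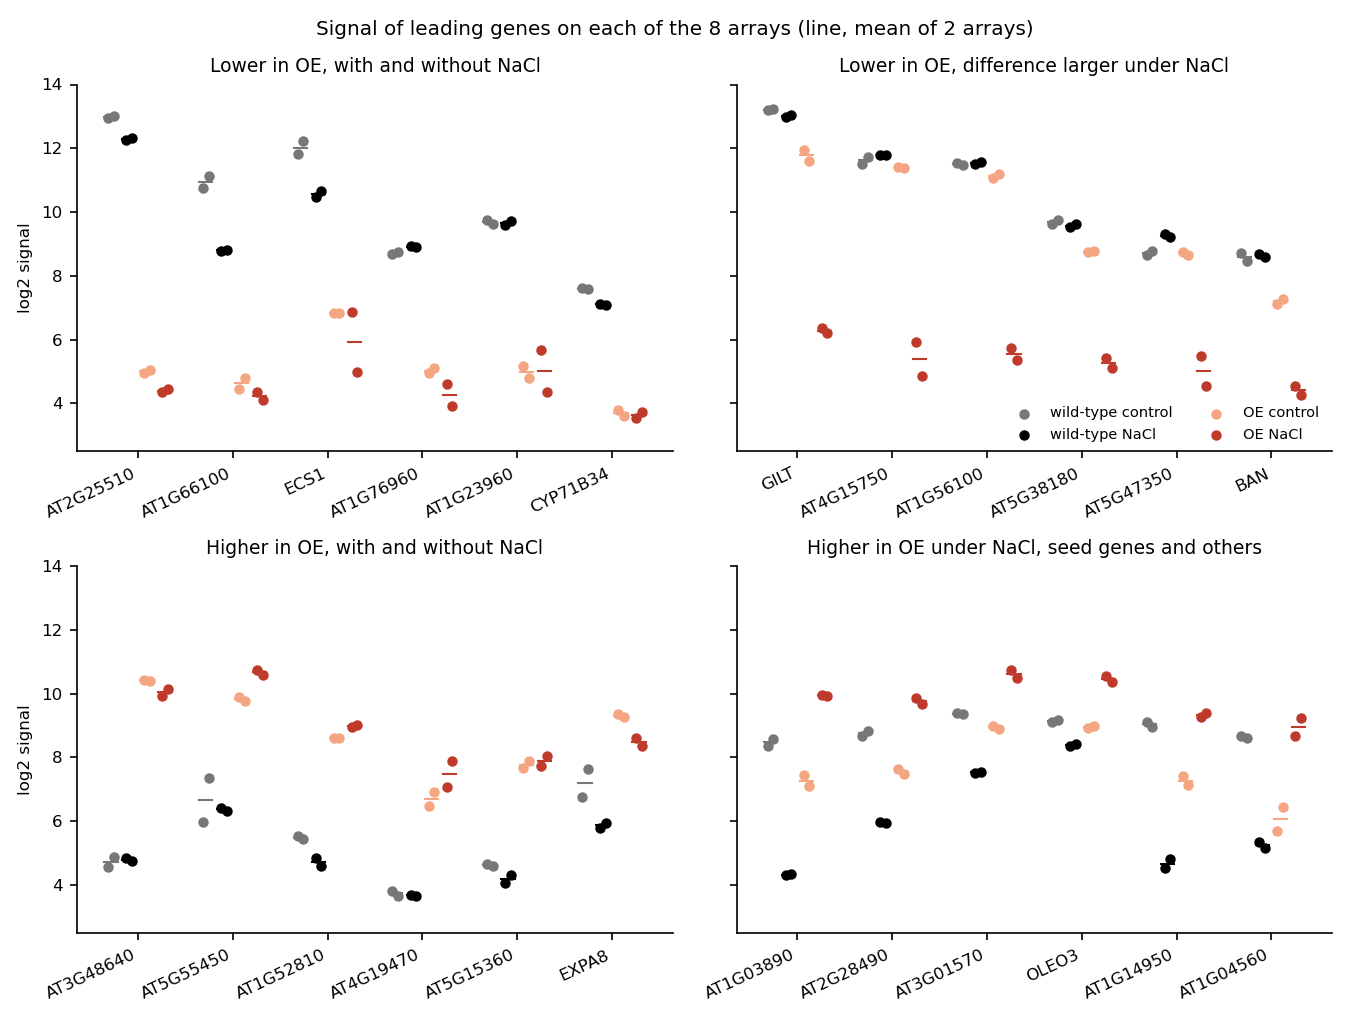
Log2 signal (y axis) of 24 leading genes on each of the 8 arrays, coloured by group; short lines are means of 2 arrays. In the upper left panel both OE groups are low, in the upper right OE NaCl lies far below the other 3 groups, in the lower left both OE groups are high, and in the lower right wild-type NaCl is the lowest group and OE NaCl the highest, as for AT1G03890 at 4.30 and 4.34 against 9.97 and 9.92.

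Among the genes higher in OE under NaCl were some of seed storage and oil bodies, and AT1G03890 and AT2G28490 of these stood among the 12 most raised. Ripening embryos store 12S globulins (cruciferins) and vicilin-like cupins as protein reserves, and coat their oil bodies with oleosins. Of 6 measured genes of this list (of 21 listed), which was drawn up with earlier results of these data known, 5 were higher and 0 lower, with a median log2 fold change of 2.56 against 0.04 over all probe sets. The summed linear signal of the list was 890 and 856 in wild-type NaCl and 5570 and 5296 in OE NaCl. In control the order was the other way, at 2427 and 2504 in wild-type and 1691 and 1542 in OE, and 3 of the 6 were lower in OE there. All 5 called members had a called interaction.

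The 12S globulin-type gene AT1G03890 was at 8.36 and 8.59 in wild-type control and at 4.30 and 4.34 in wild-type NaCl, while in OE it was at 7.43 and 7.10 in control and at 9.97 and 9.92 under NaCl. It was thus higher in OE under NaCl (log2 fold change 5.63, SE 0.16, adjusted p = 1e-05) and lower in OE in control (-1.21, adjusted p = 0.00541). Its interaction of 6.84 was the largest of any probe set that names 1 gene. The vicilin-like gene AT2G28490 went the same way, with 5.98 and 5.93 in wild-type NaCl and 9.87 and 9.67 in OE NaCl (log2 fold change 3.82, SE 0.15, adjusted p = 2.79e-05; -1.20 in control). The oleosin gene AT3G01570 was at 7.52 and 7.54 against 10.73 and 10.50 (log2 fold change 3.08, SE 0.14), and OLEO3 at 8.37 and 8.43 against 10.54 and 10.36 (2.04, SE 0.13). Another oleosin gene, AT2G25890, was dim, at 4.10 and 4.10 against 5.04 and 5.10 (0.97, SE 0.21, adjusted p = 0.0329). Leaving out a single wild-type array, or OE NaCl replicate 1, ended its call (adjusted p up to 0.214).

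Several genes outside that list were likewise higher in OE under NaCl and lower in OE in control. AT1G14950, of the Bet v 1 and major latex protein family, was at 4.52 and 4.81 in wild-type NaCl and 9.26 and 9.39 in OE NaCl (log2 fold change 4.66, SE 0.17), with -1.76 in control and an interaction of 6.42. AT1G04560, of the AWPM-19 family of stress-induced membrane proteins, was at 5.36 and 5.15 against 8.66 and 9.24 (3.70, SE 0.28; -2.58 in control). CYP78A9, a cytochrome P450 of the family that promotes organ growth, was at 5.79 and 5.77 against 7.93 and 7.99 (2.18, SE 0.12; -3.06 in control). In wild-type control it stood at 8.81 on both arrays, above OE NaCl. Log2 fold changes of 4.09, 3.61 and 3.46 under NaCl were found for the thionin gene AT2G15010, for AT5G45690 and for AT1G19900, related to glyoxal oxidases, against -1.07, -2.59 and -1.98 in control. AT1G19900 was at 8.41 on both wild-type control arrays, above its 8.29 and 7.62 in OE NaCl. For all 6 the control difference and the interaction were called. Calls under NaCl held without each of the 8 arrays. Since a fit with 1 array left in a group takes no spread from that group, this is no test of the array left out.

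LEA genes were split. Of 37 measured members (of 53 listed), 5 were higher and 8 lower in OE under NaCl, and the median log2 fold change was 0.05 (-0.07 after quantile normalization). On the higher side were AT3G15670, LEA (a dehydrin, AT2G21490), AT3G53040 and AT4G21020, with log2 fold changes of 2.36, 2.30, 2.24 and 1.88. The call of AT4G21020 ended without wild-type NaCl replicate 2 (adjusted p = 0.0626). AT3G15670 was at 5.08 and 5.02 in wild-type NaCl and 7.39 and 7.43 in OE NaCl (SE 0.12, adjusted p = 7.93e-05), and was lower in OE in control (-1.29). LEA was at 5.77 and 5.93 against 8.08 and 8.21 (SE 0.29, adjusted p = 0.00391; -2.26 in control). The fifth, AtLEA4-1, had a small difference under NaCl (0.82, SE 0.14, adjusted p = 0.0137, up to 0.16 without a wild-type NaCl array) beside one of -3.09 in control. Its level was 5.24 and 5.52 in OE control and 8.61 and 8.60 in OE NaCl.

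On the lower side of this family, AT2G23110 was at 8.36 and 8.29 in wild-type NaCl and at 5.90 and 5.11 in OE NaCl (log2 fold change -2.82, SE 0.25, adjusted p = 0.00072; -2.27 in control). M17 and M10 had -2.49 and -1.70, and AT2G03850 had -2.26. M17 was at 5.69 and 6.05 in wild-type NaCl and between 3.26 and 4.76 on the other arrays. Its call and that of AT2G03850 ended without a wild-type NaCl array (adjusted p up to 0.0656 and 0.073). Other members were not called, such as LEA4-5, at 10.78 and 10.76 in wild-type NaCl and 10.59 and 10.11 in OE NaCl (-0.42, SE 0.20, adjusted p = 0.262). AT3G02480 and AT3G17520 had log2 fold changes of 0.40 and 0.25 under NaCl (adjusted p = 0.348 and 0.415) after -1.99 and -2.17 in control.

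Of 5 measured markers of abscisic acid and cold or osmotic stress (of 28 listed), 0 were higher and 1 was lower in OE. This was the dehydrin gene LTI30, at 12.20 and 12.09 in wild-type NaCl and 11.25 and 11.13 in OE NaCl (log2 fold change -0.96, SE 0.13, adjusted p = 0.0049, up to 0.091 without a wild-type NaCl array; -1.42 in control). All 5 also stand in the LEA list, so they are no separate evidence. COR47, COR15A and COR15B had log2 fold changes between -0.28 and 0.05, and none of them was called. DELTA-OAT, ornithine aminotransferase of proline metabolism, was lower (-0.75, SE 0.14, adjusted p = 0.0176, up to 0.2 without a wild-type NaCl array; -1.42 in control), and the proline dehydrogenase gene AT5G38710 was not called (0.19, SE 0.24, adjusted p = 0.646). Its levels were 8.24 and 8.33 in wild-type NaCl and 8.12 and 8.83 in OE NaCl.

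Of 5 measured genes of the salicylate, jasmonate and ethylene responses (of 22 listed) all 5 were lower in OE under NaCl, with a median log2 fold change of -2.35. Of all probe sets 4.92% were lower, but the list was drawn up with earlier results of these data known, so the shares are no test. Of the 5 genes, 3 had a called interaction, each of which ended without 1 of 3 or more arrays. PDF1.2b, a plant defensin induced by jasmonate and ethylene, was at 6.88 and 7.09 in wild-type control, 9.17 and 8.87 in wild-type NaCl, 6.82 and 6.50 in OE control, and 6.53 and 6.18 in OE NaCl. OE minus wild-type was -2.67 under NaCl (SE 0.20, adjusted p = 0.000365) and -0.33 in control. PDF1.2 followed, at 7.36 and 7.10 against 4.17 and 5.09 under NaCl (-2.60, SE 0.32, adjusted p = 0.00318). These genes are near-identical copies whose probe sets may read each other's transcripts, so they are not separate evidence.

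JMT, the methyltransferase that forms methyl jasmonate, was at 6.65 and 6.53 in wild-type NaCl and 4.03 and 4.44 in OE NaCl (log2 fold change -2.35, SE 0.19, adjusted p = 0.000468; -1.92 in control). The thionin gene THI2.1 was between 9.44 and 9.75 on the other 6 arrays and at 7.97 and 8.25 in OE NaCl (-1.34, SE 0.15, adjusted p = 0.00236). OSM34, an osmotin-like protein, was higher in OE in control (1.07) and lower under NaCl (-0.92, SE 0.16, adjusted p = 0.0155, up to 0.165 without a wild-type NaCl array). Its interaction was -1.99 (adjusted p = 0.00771), which any 1 wild-type array ended when left out, up to 0.076.

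Among 13 measured plant defensins and defensin-like genes (of 89 listed), PDF1.2 and PDF1.2b included, 5 were lower and 2 higher. LCR67 was at 7.93 and 7.62 in wild-type NaCl and at 4.10 and 4.83 in OE NaCl (log2 fold change -3.31, SE 0.26, adjusted p = 0.000435). LCR69 and LCR24 had -1.45 and -1.13, the latter called only with both wild-type NaCl arrays (adjusted p up to 0.126 without 1). PDF2.1 and LCR68 were on the other side, at 1.35 and 0.69, and PDF2.1 was called only with both wild-type arrays of each treatment in the fit (adjusted p up to 0.216 without 1 of them). For LCR68 any array but OE NaCl replicate 2 ended the call when left out (up to 0.346). The median of the 13 was -0.07, and 0.05 after median centring.

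Plastid-encoded genes had a higher share of calls than the nuclear chromosomes. Of 69 measured (of 129 listed), 15 (21.7%) were higher in OE under NaCl and 0 lower, while on chromosomes 1 to 5 between 3.19% and 3.82% of probe sets were higher and between 3.39% and 4.72% lower. Their median log2 fold change was 0.06. The methods label RNA with a 3' in vitro transcription kit. Whether it reads plastid and nuclear transcripts alike was not tested, so the shares may not be comparable. The plastid genome encodes core subunits of the photosystems, the cytochrome b6f complex, ATP synthase and an NADH dehydrogenase-like complex, beside parts of its own ribosomes and RNA polymerase. Higher genes were 3 of 5 of photosystem I and 6 of 15 of photosystem II, with medians of 0.78 and 0.71. None of 10 genes of the NADH dehydrogenase-like complex was called in either direction, and their median was -0.53.

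The photosystem I reaction centre gene psaA was at 6.04 and 6.06 in wild-type NaCl and at 8.04 and 8.22 in OE NaCl (log2 fold change 2.08, SE 0.15, adjusted p = 0.000318), and at 6.67 and 6.95 against 8.58 and 8.65 in control. Its partner psaB was not called (0.02, adjusted p = 0.941). In photosystem II, psbC, of the inner antenna, was at 9.73 and 9.70 against 11.90 and 11.73 (2.10, SE 0.33, adjusted p = 0.01), and psbA and psbB had log2 fold changes of 1.41 and 1.33. The psaJ and petG genes had 1.97 and 1.74. Calls of psbC, psaJ, petG and psbA ended without a wild-type NaCl array (adjusted p up to 0.0827, 0.0816, 0.143 and 0.0578). The envelope protein gene cemA was higher too (1.41, SE 0.15, adjusted p = 0.00154), and rbcL, the large subunit of Rubisco, had -0.14 (adjusted p = 0.508). Of the 69, 14 were higher in control and 8 lower, and 0 interactions were called. The summed linear signal of the list was 170038 and 166124 in wild-type NaCl and 159478 and 195756 in OE NaCl, so the groups overlapped in the sum. Without OE NaCl replicate 2 the counts under NaCl were 16 higher and 11 lower, and without replicate 1 they were 17 and 1.

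**Figure D4:**
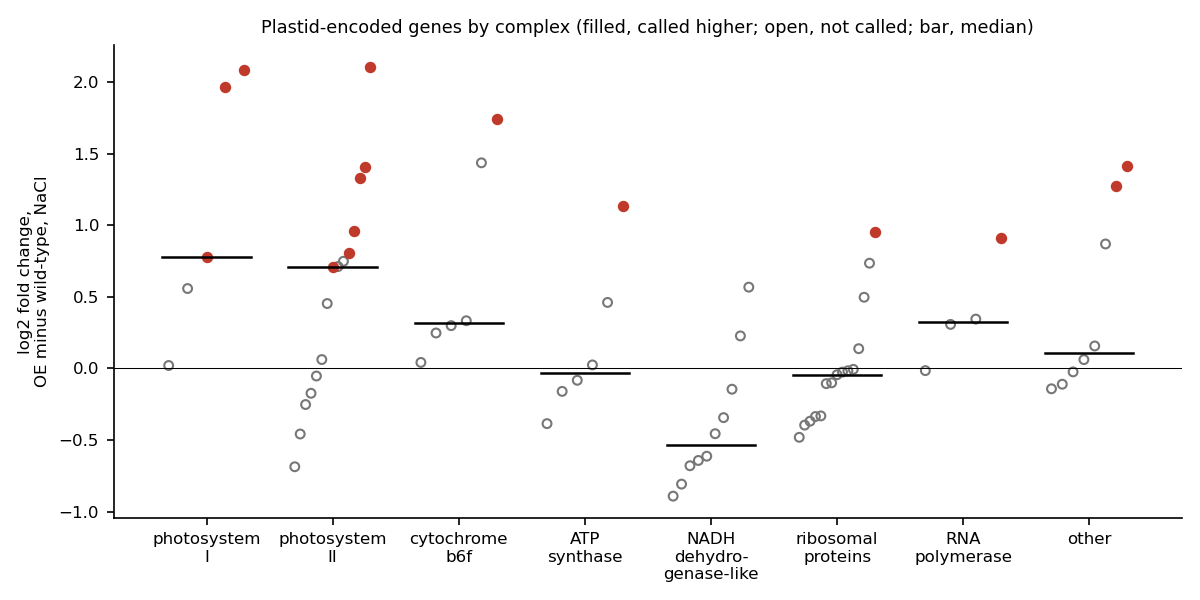
Log2 fold change of OE minus wild-type under NaCl (y axis) for 69 plastid-encoded genes grouped by complex; red points are called higher, open points are not called, and lines are medians. Photosystem I and II have medians of 0.78 and 0.71, and the NADH dehydrogenase-like complex has -0.53.

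Of nuclear genes of photosynthesis 5 were measured (of 47 listed), namely RCA, PSAE-1 and the antenna genes LHCB4.1, LHCB4.2 and LHCB4.3. None was called, their median was 0.11, and log2 fold changes ran from -0.41 to 0.16. LHCB4.3 was at 8.09 and 8.25 in wild-type NaCl and 7.75 and 7.76 in OE NaCl (-0.41, SE 0.13, adjusted p = 0.104). Of 11 measured mitochondrion-encoded genes (of 56 listed) 2 were higher and 0 lower, with a median of 0.11. The complex I subunit gene nad2 was at 3.77 and 3.87 against 5.57 and 5.37 (1.65, SE 0.19, adjusted p = 0.00229). The oxidase subunit gene cox1 had 0.64, and its call ended without any 1 of 5 arrays, the 4 wild-type ones and OE NaCl replicate 1 (adjusted p up to 0.26).

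Few genes next to the reaction of SHMT were measured, too few to compare with the 9.04% of all probe sets that were called. Photorespiration was represented by 5 measured genes (of 23 listed), none of which was called, with a median log2 fold change of 0.04. AT1G11860, the T protein of glycine decarboxylase, was at 10.16 and 10.19 in wild-type NaCl and 10.65 and 10.66 in OE NaCl (0.48, SE 0.13, adjusted p = 0.0622), and AT1G80380, glycerate kinase, at 9.89 and 9.86 against 9.28 and 9.43 (-0.52, SE 0.13, adjusted p = 0.0565). For both genes the OE arrays lay outside the wild-type range, on opposite sides. Without OE NaCl replicate 2, 1 gene of this list was called higher and 1 lower.

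Of 6 measured genes of serine, methionine and S-adenosylmethionine metabolism (of 34 listed), 1 was higher and 1 lower. BSMT1, which uses S-adenosylmethionine to methylate benzoate and salicylate, was at 6.69 and 6.71 in wild-type NaCl and 7.48 and 7.51 in OE NaCl (0.79, SE 0.15, adjusted p = 0.0177, up to 0.175 without a wild-type NaCl array). AT1G73600, a methyltransferase of phosphocholine synthesis, was at 6.84 and 6.81 against 5.15 and 5.23 (-1.64, SE 0.16, adjusted p = 0.00113), with -1.53 in control. The genes of homocysteine and methionine methylation, HMT-1 and MMT, had log2 fold changes of -0.64 and -0.22 (adjusted p = 0.165 and 0.378), and CBL, cystathionine beta-lyase, had -0.17.

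Genes of aliphatic glucosinolates, the sulfur-rich defence compounds made from methionine, were higher where they were called. AOP3, an enzyme of side chain modification, was at 5.67 and 5.52 in wild-type NaCl and 7.08 and 7.80 in OE NaCl (log2 fold change 1.84, SE 0.24, adjusted p = 0.00468, and 0.0541 without wild-type NaCl replicate 2), with -0.89 in control. BCAT4, the aminotransferase that starts chain elongation of methionine, was at 11.07 and 11.07 in wild-type control, 9.93 and 9.86 in wild-type NaCl, 8.98 and 9.01 in OE control and 10.41 and 10.65 in OE NaCl. Its level was lower with NaCl in wild-type and higher with NaCl in OE, and the interaction was 2.71 (adjusted p = 0.000874), whereas the NaCl difference itself was small (0.63, SE 0.14, adjusted p = 0.0326, up to 0.28 without a wild-type array). The other 2 of 4 measured members (of 32 listed), UGT74B1 and AT2G25450, were not called. GTR2, which imports glucosinolates into the phloem, was higher (1.49, SE 0.15, adjusted p = 0.0016, at 8.06 and 8.10 against 9.48 and 9.65), and its near relative GTR1 had 0.67 (adjusted p = 0.318).

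**Figure D5:**
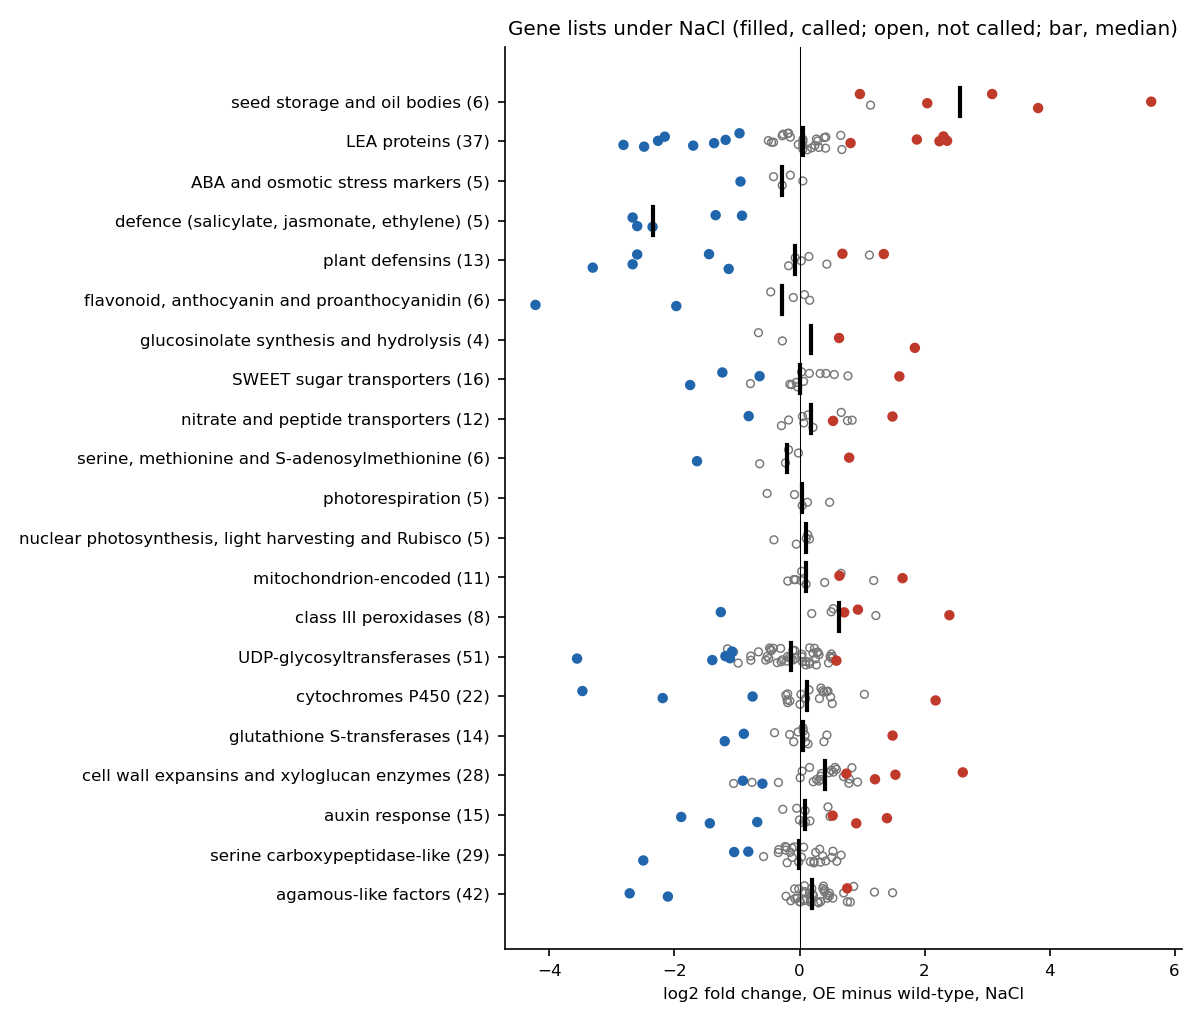
Log2 fold change of OE minus wild-type under NaCl (x axis) for the measured members of 21 gene lists, with their number in parentheses; red and blue points are called higher and lower, open points are not called, and bars are medians. The seed storage list has a median of 2.56 and the defence list of -2.35, while that of all probe sets is 0.04.

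Sugar transporters of the SWEET family were split, with 1 higher and 3 lower of 16 measured (of 17 listed), and a median at 0.00. SWEET16, a fructose carrier of the vacuole membrane, was at 5.53 and 5.35 in wild-type NaCl and 7.16 and 6.92 in OE NaCl (log2 fold change 1.60, SE 0.17, adjusted p = 0.00165). SWEET8, known from pollen development, was lower, at 6.74 and 6.71 against 5.09 and 4.86 (-1.75, SE 0.16, adjusted p = 0.00104; -0.92 in control). SWEET2, also of the vacuole, had -1.23 and SWEET1 -0.64, and both calls ended without a wild-type NaCl array (adjusted p up to 0.0978 and 0.275). For SWEET1 this was so without a wild-type control array and without OE NaCl replicate 1 as well. SWEET4 was at 8.85 and 8.97 against 7.93 and 8.33, which was not called (-0.78, SE 0.24, adjusted p = 0.0998), beside -2.18 in control. SAG29, the senescence-associated SWEET15, had 0.33 (adjusted p = 0.306).

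Nitrate and peptide transporters, which include GTR1 and GTR2, had 2 higher and 1 lower of 12 measured (of 36 listed), with a median of 0.18. Besides GTR2, AT2G26690 was higher (0.54) and AT3G25260 lower (-0.81), both only with the wild-type NaCl arrays in the fit (adjusted p up to 0.314 and 0.142), AT2G26690 only with the wild-type control arrays as well. The nitrate transporter AT3G21670 was at 9.46 and 9.43 in wild-type NaCl and 9.34 and 9.83 in OE NaCl (0.14, adjusted p = 0.697). AT3G45700 was dim, between 4.26 and 5.29 on all 8 arrays, and was not called (0.54, SE 0.28, adjusted p = 0.288).

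Of 8 measured genes found by the symbols of class III peroxidases (of 23 listed), 3 were higher and 1 lower, with a median of 0.63. These secreted enzymes act on phenolics and peroxide in the cell wall. PRX52, linked to lignin formation, was at 5.81 and 5.77 in wild-type NaCl and 8.14 and 8.24 in OE NaCl, 5.27-fold higher (log2 fold change 2.40, SE 0.14, adjusted p = 0.000138), against 0.48 in control. Its interaction was 1.92 (adjusted p = 0.00493), which ended without either wild-type NaCl array or wild-type control replicate 2 (up to 0.0603). The other 2 higher genes, PRXR1 (0.71) and AT5G64120 (0.93), and the lower one, AT3G50990 (-1.26), lost their calls without a wild-type NaCl array (adjusted p up to 0.268, 0.246 and 0.126). PRXR1 lost its call without a wild-type control array or OE NaCl replicate 1 too, and AT5G64120 without a control array of either genotype.

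In the families of conjugation and detoxification most members were not called, as was so for all probe sets, of which 9.04% were called. Of 51 measured UDP-glycosyltransferases (of 64 listed), enzymes that attach sugars to hormones and foreign compounds, 1 was higher and 5 were lower, with a median of -0.14. UGT73C7 was at 8.67 and 8.49 in wild-type NaCl, 4.45 and 5.59 in OE NaCl, and 4.54 to 5.43 in both controls (log2 fold change -3.56, SE 0.35, adjusted p = 0.00126). Its interaction of -2.96 (adjusted p = 0.0379) was called only in the fit to all arrays and in those without an OE NaCl array. UGT73B4, UGT76B1, UGT73B5 and UGT85A5 had log2 fold changes from -1.40 to -1.08. All 4 calls ended without a wild-type NaCl array (adjusted p up to 0.18, 0.203, 0.0935 and 0.219). Those of UGT73B4, UGT76B1 and UGT85A5 ended without a wild-type control array as well, that of UGT76B1 also without an OE control array, and that of UGT85A5 also without OE NaCl replicate 1. Without OE NaCl replicate 2, 17 members of this family were lower and 2 higher. Among 14 measured glutathione S-transferases (of 49 listed) 1 was higher, GSTU27 (1.49, SE 0.18, adjusted p = 0.00311, at 7.10 and 7.21 against 8.85 and 8.44), and 2 were lower, GSTU15 (-1.20) and GSTU26 (-0.89), whose calls ended without a wild-type NaCl array (adjusted p up to 0.0922 and 0.182). Of 22 measured cytochromes P450 (of 240 listed), 1 was higher and 3 lower, namely CYP78A9 and the CYP71B genes 34, 26 and 22. CYP71B22 was just within the limit (-0.75, adjusted p = 0.0468), and of the arrays only OE NaCl replicate 2 could be left out without ending its call. None of 8 measured aldehyde dehydrogenases (of 14 listed) was called.

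Most expansins and xyloglucan enzymes of the cell wall were not called under NaCl, and their summed signal was lower in OE. Of 28 measured (of 69 listed) 4 were higher and 2 lower, with a median of 0.41, and in control 10 were higher and 1 lower. Of all probe sets 4.12% were higher and 4.92% lower under NaCl. Only the calls of EXPA8 and EXPA15 under NaCl held without each array, so the counts give no direction for the list. The summed linear signal of the list was 6567 and 6878 in wild-type NaCl and 5005 and 5492 in OE NaCl. The lower genes were EXGT-A3 and EXLA1 (-0.59, adjusted p = 0.049). The call of EXLA1 ended without a wild-type array or OE NaCl replicate 1. EXPA8 was at 5.79 and 5.94 in wild-type NaCl and 8.60 and 8.35 in OE NaCl (log2 fold change 2.61, SE 0.27, adjusted p = 0.00148; 2.11 in control), and EXPA15 at 6.36 and 6.40 against 8.06 and 7.78 (1.53, SE 0.18, adjusted p = 0.00289; 1.08 in control). XTH33 (1.21), XTH29 (0.75) and EXGT-A3 (-0.91) were called only with both wild-type NaCl arrays (adjusted p up to 0.245, 0.21 and 0.145 without 1 of them), and XTH33 only with the wild-type control and OE NaCl arrays as well. In the cellulose synthase family 1 of 8 measured (of 42 listed) was higher, CSLA03 (0.91), and 1 lower, CSLC04 (-0.94), of the xyloglucan backbone. Leaving out a single wild-type array ended both calls (adjusted p up to 0.171 and 0.335), and that of CSLC04 also without an OE control array or OE NaCl replicate 1.

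In the auxin response 3 of 15 measured genes (of 121 listed) were higher and 3 lower. GH3.17, which joins auxin to amino acids, was at 7.22 and 7.36 in wild-type NaCl and 5.32 and 5.47 in OE NaCl (log2 fold change -1.89, SE 0.17, adjusted p = 0.000765), against -0.21 in control (interaction -1.68, adjusted p = 0.0189, ended without any 1 wild-type array, up to 0.161). GH3.9 of the same family had 1.40 and the repressor IAA31 -1.43, both of which ended without a wild-type NaCl array (adjusted p up to 0.057 and 0.0552). Among regulators, bZIP44 was lower (8.57 and 8.58 against 7.05 and 7.26, -1.42, SE 0.17, adjusted p = 0.00314), and 1 of 22 measured bZIP factors (of 60 listed) was higher and 2 lower. None of 7 measured WRKY factors (of 72 listed) was called. WRKY6, of senescence and phosphate responses, was at 7.97 and 8.07 in wild-type NaCl and 7.65 and 7.03 in OE NaCl (-0.68, SE 0.27, adjusted p = 0.186). Of 42 measured agamous-like factors (of 99 listed) 1 was higher, AGL67 (0.76, up to an adjusted p of 0.171 without a wild-type NaCl array), and 2 were lower. The ethylene response factor AT4G28140 was at 9.45 and 9.41 against 10.27 and 10.01 (0.71, SE 0.15, adjusted p = 0.03, up to 0.243 without 1 array, with the call ended by any 1 wild-type array or OE NaCl replicate 1).

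A last group was higher in OE with and without salt. AT3G48640 was between 4.56 and 4.86 on the 4 wild-type arrays and between 9.93 and 10.44 on the 4 OE arrays, which made it higher under NaCl (log2 fold change 5.25, SE 0.15, adjusted p = 1e-05; 5.71 in control). AT5G55450, a lipid transfer protein gene, was at 6.42 and 6.33 in wild-type NaCl and 10.74 and 10.59 in OE NaCl (4.29, SE 0.39, adjusted p = 0.000846; 3.17 in control). The oxygenase gene AT1G52810 had 4.25, with 3.13 in control and an interaction of 1.12 (adjusted p = 0.0474) that 7 of the 8 arrays ended when left out, AT4G19470 had 3.81 with 2.96, and AT5G15360 had 3.71 with 3.15. No array of 1 genotype overlapped the other in these 5 genes in either treatment. AT1G62210 was higher under NaCl (3.79, SE 0.13) and not called in control (0.42, adjusted p = 0.0611), with an interaction of 3.37.

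Of 18 measured genes that the study names (of 44), 6 were higher in OE under NaCl and 3 lower, with a median log2 fold change of 0.22, while in control 1 was higher and 12 were lower, with a median of -1.13. The study chose these genes on the same arrays, so they are not independent evidence of a direction. It names most of them as induced by NaCl in OE, in wild-type or in both, each compared with its own control. That is another contrast than OE minus wild-type, so these counts do not bear on it directly. Besides LEA, PRX52, AtLEA4-1, BSMT1 and AT4G28140, the higher ones include AT2G38905, of a family of small membrane proteins induced by cold and salt, at 5.51 and 5.73 in wild-type NaCl and 8.20 and 8.56 in OE NaCl (2.76, SE 0.29, adjusted p = 0.0016; -1.11 in control). The lower ones were LTI30, SWEET2 and OSM34, of which the supplement of the study lists SWEET2 and OSM34 in its wild-type column.

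Markers of organs that whole seedlings could hold in unequal amounts were set beside these groups. Of 3 measured root markers (of 12 listed) 1 was higher, the root beta-glucosidase gene PYK10, at 8.40 and 8.33 against 9.19 and 9.74 (1.10, SE 0.21, adjusted p = 0.0225, up to 0.176 when a wild-type array was left out, each of which ended the call). The summed linear signal of the 3 was 382 and 363 in wild-type NaCl and 652 and 909 in OE NaCl. Of 5 measured anther and pollen markers (of 10 listed) 0 were called, with sums of 118 and 118 against 119 and 101. The only measured seed coat marker was BAN, which was lower in OE, and no listed embryo or flower organ marker was found by name here, so the seed genes higher in OE have no independent embryo marker beside them. The part of organ makeup in any of these results was not tested.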

How the data were processed

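The authors deposited log2 values for 8 ATH1 arrays, made per the labels with Affymetrix Expression Console (version and summarization not given in the sources used here; the methods name an R package). The table holds 22810 probe sets. After 64 controls were left out, 22746 were tested. A single gene was named for 13513, of which 13436 were found in RefSeq's TAIR10.1 gene list, several genes for 503, and none here for 8730. The values were not normalized again.

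Limma 3.58.1 in R 4.3.3 was fitted with 1 mean for each of 4 groups and a spread shared by all 8 arrays, with Benjamini-Hochberg adjustment across the 22746 probe sets and calls at 0.05. The number of arrays limits the precision. Named genes are the 12 largest log2 fold changes each way under NaCl and the 5 largest interactions each way that were called, did not overlap and name 1 gene, up to 5 called members of each list (or 2 uncalled ones) and genes the study names. The brightest probe set stands for a gene that has more than 1, and summed signals are on the linear scale. A few further members of lists, chosen after their values were seen, are named to account for counts. The members and lists were chosen with earlier results of these data known. For 8 of the 47 lists no member was measured here. The fit was tested on simulated data.

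Alternatives were a fit to the 4 NaCl arrays, other moderation, scaling, filters and weights, the replicate number as a block, other limits, the mean of a gene's probe sets, and each array left out.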

Additional observations from a re-analysis of the deposited data

Results flagged for a closer look

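For 40 named genes the difference between OE and wild-type under NaCl was not the same as in control by the limma interaction test (adjusted p under 0.05 over all probe sets), 26 toward OE and 14 toward wild-type. Values are interactions on the log2 scale, the NaCl difference minus the control difference. A fit with 1 array left in a group takes no spread from that group, so a call kept there is no test of the array left out. Of the 40, 22 were also called without each of the 8 arrays and 18 ended without at least 1.

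Those called without each array and running toward OE were seed storage and oil body genes (AT1G03890 6.84, AT2G28490 5.01, AT3G01570 3.51 and OLEO3 2.23), LEA genes (LEA 4.57, AtLEA4-1 3.91, AT3G15670 3.65 and AT3G17520 2.41), and AT1G14950 (6.42), AT1G04560 (6.28), AT5G45690 (6.20), AT1G19900 (5.45), CYP78A9 (5.24), AT2G15010 (5.16), AT1G62210 (3.37) and BCAT4 (2.71). Running toward wild-type were AT4G15750 (-6.16), AT1G56100 (-5.60), GILT (-5.30), AT5G47350 (-4.23), AT5G38180 (-3.38) and BAN (-2.83).

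Among those that ended without an array, AT2G38905 (3.87), PDF2.1 (3.26), AOP3 (2.74), AT2G25890 (2.61), AT3G02480 (2.39), PRX52 (1.92), GTR2 (1.82), AT1G66100 (1.77), SAG29 (1.41) and AT1G52810 (1.12) ran toward OE. UGT73C7 (-2.96), M17 (-2.91), LCR67 (-2.59), PDF1.2b (-2.34), OSM34 (-1.99), GH3.17 (-1.68), THI2.1 (-1.42) and scpl20 (-1.40) ran toward wild-type. All 18 ended without at least 1 wild-type array, and their highest adjusted p ran from 0.0522 for AT2G38905 to 0.338 for AT1G52810.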

How the results depend on the processing

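Of 107 named genes called under NaCl, 54 were called under every one of the 19 alternatives that held their probe set. The filters on signal left some genes out. The fit to probe sets above the median held 76 of the 107, and that above the 25th percentile held 104. The 2057 calls under NaCl became 964 in a fit to the 4 NaCl arrays, 1162 without moderation, 315 at the limits of the methods, and 1215 when a log2 change beyond 1 was also asked for. For the 4580 calls in control the last 3 gave 1605, 285 and 2080, and for the 375 interactions the first 2 of these gave 185 and 198. With 1 array left out, counts ran from 563 to 7057 under NaCl, from 420 (without wild-type control replicate 1) to 8696 (without either OE NaCl array) in control, and from 122 (without wild-type NaCl replicate 2) to 2294 (without OE NaCl replicate 1) for the interaction. Median centring turned the control split from 40.2% to 69.0% higher. The cause was not tested. Some uncalled log2 fold changes changed sign, namely that of RCA under median centring (0.066) and without OE NaCl replicate 1 (0.059), and with an OE NaCl array left out those of WRKY42 (-0.21 to 1.23), PYE (-0.093 to 0.31), AT5G38710 (-0.16 to 0.55), AT3G21670 (-0.11 to 0.38) and AT2G42560 (-0.35 to 0.46).

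Deviations of same-numbered arrays correlated weakly over probe sets (r from -0.205 to 0.181 over the 6 pairs of groups). Whether the numbers pair samples of the same culture or batch is not stated and cannot be told from these values. With the replicate number as a block, 1649 probe sets were called under NaCl, 4025 in control and 286 for the interaction.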
